A study of Mus musculus with 2 samples.

Results

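Organic ion and ABC transporters move drugs, bile acids, steroid conjugates, lipids and metabolic waste across cell membranes. The genes were chosen by symbol, as all Slc22a, Slco, Slc47a and Abca to Abcg genes on the array. They numbered 93 of 29923 genes, measured by 123 of 39429 probes. The study compared ureters of Pparg-cKO and control embryos of the mouse strain NMRI at E18.5 on 2 two-colour arrays. Each array held RNA of a Pparg-cKO pool, which carried Pax2-cre/+ and Pparg(fl/fl), and of a control pool of littermates without cre, which carried Pparg(fl/?), the second allele being floxed or wild type. Pparg encodes a ligand-activated nuclear receptor, which binds DNA as a pair with RXR. The Pax2-cre transgene is active in the nephric duct, the ureteric epithelium and the collecting ducts of the kidney, so that other cells of the ureter keep the receptor. Array 1 held pools of females (the female pair) and array 2 pools of males (the male pair), and the dyes were exchanged, so sex, dye and array cannot be told apart. Whether the 2 pools of a genotype were fully separate samples rests on the labels, and p-values measure only the spread between these arrays.

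Uptake carriers of the Slc22 family bring organic cations, anions and carnitine into cells, and Slco genes encode the organic anion transporting polypeptides, which take up bile acids, thyroid hormones and prostaglandins. Slc47 genes encode MATE proteins, which export organic cations in exchange for protons. ABC transporters use ATP to pump lipids, conjugates and drugs, whereas members of the Abce and Abcf groups act in translation and transport nothing. In the kidney, Slc22 carriers and Slc47a1 are best known from the proximal tubule, while the urothelium of the ureter lies downstream, in contact with the excreted urine.

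The probes of the members with the widest differences between pools are shown by their first 30 of 60 bases, 5′ to 3′, because each value below rests on the annealing of 1 such oligonucleotide. Their positions on build mm9 were chr11:61157910-61157969 on the minus strand for Slc47a1, chr19:7747661-7747720 on the minus strand for Slc22a19, chr19:8700868-8700927 on the plus strand for Slc22a6, chr14:118882104-118882163 on the minus strand for Abcc4 and chr2:180209483-180209542 on the plus strand for Slco4a1. The Slco4c1 probe spanned chr1:98715632-98717766 on the minus strand, which is wider than the probe and therefore holds a gap between its ends.
Slc47a1: gttggaccagccgatgaaccagcaacaagc
Slc22a19: gcatatcgtggtccagaattatacctatat
Slc22a6: gctctaactgtgtgcagcttcttaagcaga
Abcc4: gccagtaaatgatgtagattcgtcctttat
Slco4c1: gctataagtgttacttgtaaagttatcacc
Slco4a1: gcagcttgtgtggacagtgtgtttctatgt

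Each array held 174979 spots, and SDs below are over the 2 arrays unless said otherwise. The median processed signal, a background-subtracted and dye-normalised intensity, lay between 59.0 and 65.3 in the 4 channels. Signs are those of the deposited ratios, which run against the dye labels on both arrays, so the direction is likely and not settled. In the deposited direction the superficial cell genes Krt20 (-3.09), Upk3b (-1.67) and Upk1a (-1.51) were lower in Pparg-cKO pools on both arrays. By in situ hybridisation in the study, not analysed here, these genes stained less and the Pparg transcript more in mutant ureter sections, which with the titles of the deposited table is why this direction is called likely. If the dye labels are right all the same, every higher becomes lower and the reverse, while sizes, counts and p-values stay. Pparg itself gave processed signals of 12357 in the Pparg-cKO pool and 6113 in the control pool in the female pair, and 12930 and 6688 in the male pair. Its log2 ratio was 0.97 (SD 0.02) and the limma adjusted p was 0.037. The floxed alleles lack exons 2 and 3 after recombination while a transcript is still made, and exon structure was not analysed here, so this probe does not check the deletion.

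Of the 93 members, 70 were well above background in at least 1 pool on both arrays and entered the limma test. The 23 that did not included 20 that were not well above background in any pool. These 20 came mainly from the Slc22 family (8), the Slco family (5) and the Abca family (4), among them the organic anion carriers Slc22a7 and Slc22a8, the urate carrier Slc22a12 and the bile salt pump Abcb11. Signals of 35 members reached 100 in the brighter channel on both arrays. The median mean log2 ratio of the 70 tested members was 0.01, as was that of all 22499 genes tested. On the female array the median of the members was -0.03 and in the male pair 0.03. Signs were the same on both arrays for 40 of the 70 members (21 lower and 19 higher), and for 52.8% of all genes tested.

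Few transporters passed a test. In limma with Benjamini-Hochberg adjustment over all genes, 1 of 70 members was lower in Pparg-cKO pools, against 0.369% of all genes tested, and 0 were higher, against 0.382%. At an unadjusted p of 0.05, limma gave 7 members lower (4.2% of all genes) and 3 higher (4.31% of all genes). By the fold rule, which asks for at least 1.5-fold in the same direction on both arrays and a signal of at least 100, 1 of 35 members was lower (1.05% of 14015 genes) and 0 were higher (0.792%). In pooled tissue, fewer cells of a type and less RNA per cell cannot be told apart. Mean log2 ratios lay within 0.2 of zero for 52 of the 70 members.

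**Figure D1:**
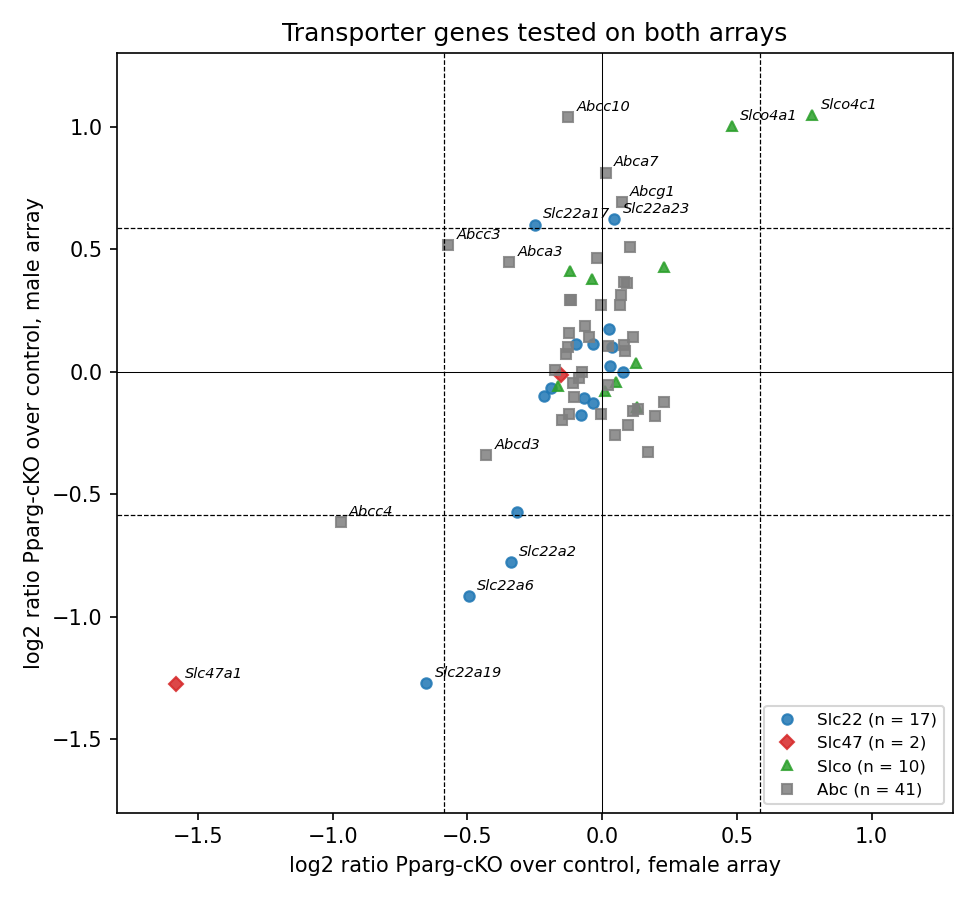
Log2 ratio of Pparg-cKO over control on the female array (x axis) against the male array (y axis) for the 70 tested members, 1 point per gene, shaped by family; dashed lines mark 1.5-fold. Slc47a1 and Slc22a19 lie in the lower left and Slco4c1 and Slco4a1 in the upper right, whereas Abcc10, Abca7, Abcg1, Slc22a23 and Slc22a17 lie high on the male array only.

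Slc47a1, the MATE exporter of organic cations, had the lowest mean ratio with the offset of 50. Its processed signal was 16.8 in the Pparg-cKO pool and 91.5 in the control pool in the female pair, and 20.0 and 78.1 in the male pair. Both control pools were above both Pparg-cKO pools. The log2 ratio was -1.58 in the female pair and -1.27 in the male pair, with a mean of -1.43 (SD 0.22) or a 2.69-fold difference, and its limma adjusted p was 0.0213. Spots of the probe within an array varied with a SD of 0.21 and 0.30. The signals lay under 100, so the fold rule left the gene out. The study probed tissue sections for Slc47a1 as a gene lowered on its arrays. By in situ hybridisation it found no specific signal for Slc47a1 in mutant or control ureters at this stage, which was not analysed here. The ratio was computed after an offset of 50 was added to both channels and is smaller than the ratio of the processed signals. The other MATE gene, Slc47a2, was dim, with signals of 2.67 to 5.13 and a mean log2 ratio of -0.08. The Slc47a1 call was lost in limma with dim probes kept in the test, at the same ratio (adjusted p = 0.0558), and in the deposited ratios, where its ratio was -2.18 (adjusted p = 0.533) and limma called 0 of all genes tested.

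Organic cation uptake carriers of the Slc22 family had negative ratios on both arrays without passing the test. Slc22a2, the cation carrier OCT2, gave 20.8 and 31.6 (Pparg-cKO and control) in the female pair and 17.3 and 40.6 in the male pair, a mean log2 ratio of -0.56 (SD 0.31) with a limma adjusted p of 0.325 (0.0423 without the offset). Both control pools were above both Pparg-cKO pools. Slc22a3 had a mean of -0.13 (SD 0.09).

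Among 13 organic anion carriers of the Slc22 family, 6 were tested and none reached a signal of 100. Slc22a6, encoding the para-aminohippurate carrier OAT1, gave 9.74 and 21.8 in the female pair and 4.81 and 24.0 in the male pair. The Pparg-cKO pools were below the control pools, the mean log2 ratio was -0.71 (SD 0.30) and the limma adjusted p was 0.186. Slc22a19 gave 3.76 and 18.7 in the female pair and 0.804 and 24.5 in the male pair. Its Pparg-cKO pool was not well above background on either array, so the level in Pparg-cKO is only bounded, and averaged over both arrays the gene was at least 1.83-fold lower than in the control pools (limma adjusted p of 0.146). It entered the test only through its control pools. Without the offset, limma called Slc22a6 lower (-1.19, adjusted p = 0.0043). Slc22a13, a urate and nicotinate carrier, stood at -0.13 (SD 0.07). Slc22a20 was dim in the Pparg-cKO pool on both arrays and was above background in the control pool in the female pair alone. It gave 6.77 in that control pool and was not tested.

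Carnitine carriers had small ratios. Slc22a5, which imports carnitine, gave 336 and 355 in the female pair and 335 and 385 in the male pair, a mean log2 ratio of -0.08 (SD 0.06), and Slc22a21 stood at -0.09 and Slc22a4 at 0.07. Of the other Slc22 members, Slc22a18 was at -0.16 (SD 0.08). Slc22a23 gave 583 and 542 in the female pair and 867 and 559 in the male pair, and Slc22a17, described as a lipocalin receptor, gave 2892 and 3191 in the female pair and 4782 and 3379 in the male pair. Their log2 ratios were 0.04 and 0.62 for Slc22a23 and -0.25 and 0.60 for Slc22a17, so that 1.5-fold was passed in the male pair alone.

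**Figure D2:**
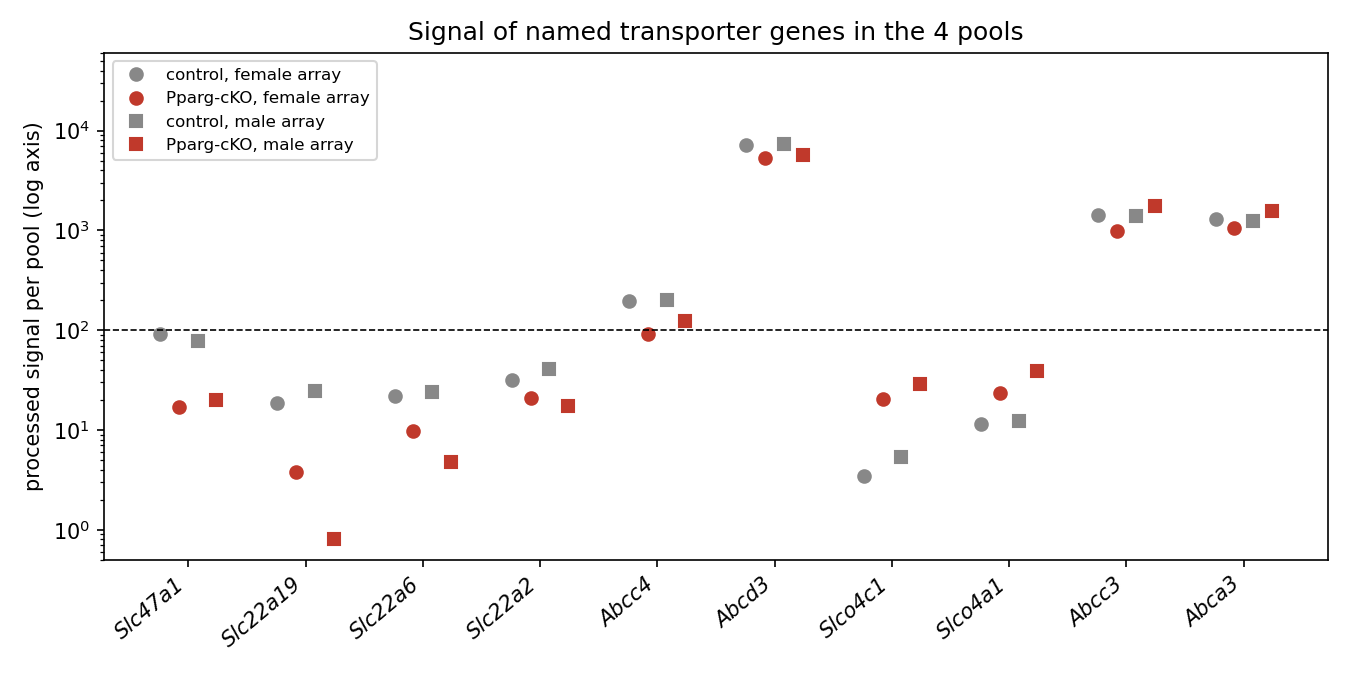
Processed signal (log axis) of 10 members in the 4 pools, control in grey and Pparg-cKO in red, the female array as circles and the male array as squares; the dashed line marks the signal of 100 asked for by the fold rule. Slc47a1 stands at 91.5 and 78.1 in the control pools and 16.8 and 20.0 in the Pparg-cKO pools, Slco4c1 shows the opposite order, and Abcc3 and Abca3 change order between arrays.

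The largest positive mean ratios were those of 2 Slco members, neither of which passed a test as processed here. Slco4c1, a carrier of digoxin, thyroid hormone and uremic anions of the kidney, gave 20.2 in the Pparg-cKO pool and 3.43 in the control pool in the female pair, and 29.1 and 5.39 in the male pair. Both Pparg-cKO pools were above both control pools, although the control level was measured well above background on 1 of 2 arrays, the female one, so that the male ratio is against a background signal. The log2 ratio was 0.78 and 1.05, with a mean of 0.91 (SD 0.19), and the limma adjusted p was 0.0627, which misses the threshold. The mean and this p include that male ratio, and on the male array the gene entered the test only through its Pparg-cKO pool. Against that background signal Slco4c1 passed limma with scanner-processed signals (adjusted p = 0.0135) and without the offset (adjusted p = 0.000154). It was not tested where both channels had to be above background. Slco4a1, a thyroid hormone carrier, gave 23.6 and 11.5 in the female pair and 39.3 and 12.3 in the male pair. Its mean was 0.74 (SD 0.37) with a limma adjusted p of 0.213, and it passed without the offset (1.12, limma adjusted p = 0.00588). Slco3a1, a carrier of prostaglandins and thyroxine, was brighter, with 219 and 176 in the female pair and 295 and 220 in the male pair, and its mean of 0.33 (SD 0.14) had a limma adjusted p of 0.516. The Pparg-cKO pools were above the control pools on each array for all 3 genes. The prostaglandin carrier Slco2a1 gave -0.12 in the female pair and 0.41 in the male pair.

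Abcc4, the exporter of cyclic nucleotides, prostaglandins and urate, was the only member past the fold rule. It gave 91.4 and 198 in the female pair and 123 and 202 in the male pair, and both control pools were above both Pparg-cKO pools. The log2 ratio was -0.97 and -0.62, the mean -0.79 (SD 0.25) or 1.73-fold, and the limma adjusted p was 0.116 (0.0108 without the offset). Its male ratio was just inside the 1.5-fold line, and with each array centred on its median or with a signal of 200 asked for, Abcc4 no longer passed. Among members with a signal of at least 100 and the same direction on both arrays, Abcd3 was the one nearest the line on the other side. This ranking used the smaller of the 2 ratios. Abcd3 is the peroxisomal importer of very long chain and branched acyl-CoA. It was bright, at 5315 and 7132 in the female pair and 5636 and 7265 in the male pair. Its log2 ratio was -0.43 and -0.34, with a mean of -0.39 (SD 0.06) and a limma adjusted p of 0.362. Abcd2 stood at 0.10 and Abcd4 at 0.02.

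Of the other multidrug resistance proteins, Abcc10 gave 371 and 398 in the female pair and 745 and 376 in the male pair, with log2 ratios of -0.13 and 1.04. Abcc1, an exporter of glutathione conjugates, gave 0.08 and 0.37, and the sulfonylurea receptor gene Abcc8 gave 0.09 and 0.36. Abcc9, the vascular and smooth muscle sulfonylurea receptor, stood at 0.08 (SD 0.0013) with signals of 2013 to 2319. Abcc5 was measured by 4 probes, which did not point one way: the brightest averaged 0.17, the others -0.14, -0.27 and -0.23. Abcc2 was dim in the Pparg-cKO pool on both arrays.

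Lipid carriers of the Abca family included 16 members, of which 11 were tested and 0 were called by either rule, with 0 at an unadjusted p under 0.05 in limma. Abca1, the cholesterol exporter to apolipoprotein A1, gave 2259 and 2509 in the female pair and 2090 and 2446 in the male pair. Its mean log2 ratio was -0.17 (SD 0.03), and both control pools were above both Pparg-cKO pools. Abca8b stood at -0.15 (SD 0.04), and Abca7, which handles phospholipids, was at 0.01 in the female pair and 0.81 in the male pair. Abca2, of lysosomes and nerve tissue, gave 0.10 and 0.51. Among sterol and drug exporters of the Abcg family, Abcg1, which exports cholesterol to lipoproteins, gave 75.6 and 70.3 in the female pair and 125 and 73.5 in the male pair. Abcg2, the urate and drug exporter, was at -0.08 (SD 0.13), with signals of 2759 to 3156.

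The Abcb family held 10 members, of which 8 were tested, and their means lay between -0.04 for Abcb10 and 0.13 for Abcb1a, a P-glycoprotein gene. Limma called 0 of them, and 0 had an unadjusted p under 0.05. The Abce and Abcf genes, which do not transport, had means between -0.06 and 0.22.

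**Figure D3:**
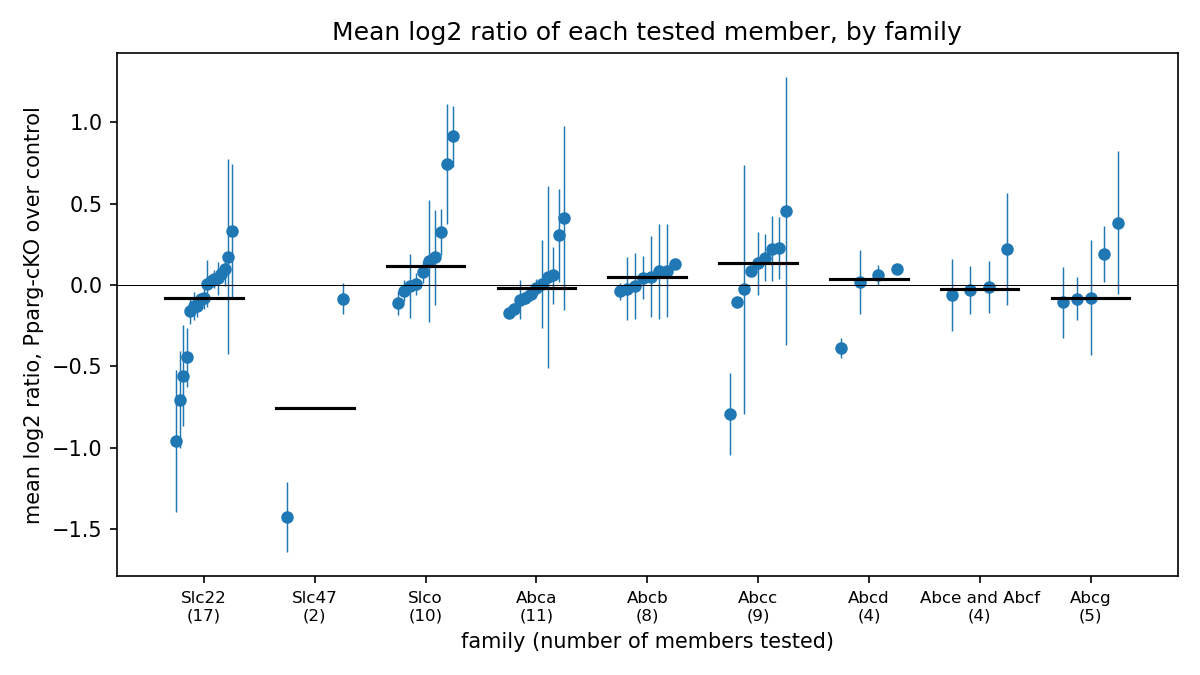
Mean log2 ratio of Pparg-cKO over control (y axis) of each tested member by family, with the SD of the 2 arrays as bars and the family median as a black line. Slc47a1 at -1.43 and Slco4c1 at 0.91 are the ends of the range with the offset of 50, and the medians of the families with 4 or more members tested lie between -0.08 and 0.13.

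Members past 1.5-fold on 1 array lay mainly in the male pair, as did all genes. Among the 35 members with a signal of at least 100, 4 were at least 1.5-fold higher in the male pair, whatever their ratio on the other array, against 6.3% of all genes, and 1 was lower, against 1.95%. On the female array 0 were at least 1.5-fold higher, against 1.2%, and 1 was lower, against 1.85%. The 1 lower member was Abcc4 on either array, and the 4 higher members were Abcc10, Abca7, Slc22a17 and Slc22a23. Abcg1 passed 1.5-fold in the male pair with a signal of 125 but under 100 in the female pair.

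Promoter sequences from RefSeq are given for Abcc4, which passed the fold rule, and for Slco4c1 and Slco4a1, which had the largest positive mean ratios, because Pparg is the deleted gene and the receptor pair it forms with RXR recognises repeats of the core AGGTCA. They are the 250 bases before the listed start on GRCm38.p6, written 5′ to 3′ along the gene's strand, with AGGTCA on either strand in capitals. They lie at chr14:118706220-118706469 (minus), chr1:96872172-96872421 (minus) and chr2:180460728-180460977 (plus), the windows of Abcc4 and Slco4a1 each being 1 of 2 listed; the other window of either gene holds no match.
Abcc4: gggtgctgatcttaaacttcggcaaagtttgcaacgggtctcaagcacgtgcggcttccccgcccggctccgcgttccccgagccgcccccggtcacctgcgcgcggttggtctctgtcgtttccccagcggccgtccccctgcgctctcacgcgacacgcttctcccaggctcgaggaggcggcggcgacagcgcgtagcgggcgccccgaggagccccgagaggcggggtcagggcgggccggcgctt
Slco4c1: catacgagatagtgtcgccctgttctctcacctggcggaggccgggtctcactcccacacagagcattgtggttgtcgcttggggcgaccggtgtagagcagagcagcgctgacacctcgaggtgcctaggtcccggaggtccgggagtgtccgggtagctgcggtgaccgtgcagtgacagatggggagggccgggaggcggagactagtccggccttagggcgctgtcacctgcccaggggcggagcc
Slco4a1: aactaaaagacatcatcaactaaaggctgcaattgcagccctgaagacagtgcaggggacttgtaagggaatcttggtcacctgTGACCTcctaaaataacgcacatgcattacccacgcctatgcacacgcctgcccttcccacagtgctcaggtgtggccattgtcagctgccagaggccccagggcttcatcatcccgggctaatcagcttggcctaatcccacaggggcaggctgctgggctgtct
The core was present in 1 of these 3 windows. For Slco4a1 the window with the match was the 1 printed, so this count cannot be set against the shares that follow. The core was found in 14.0% of 32851 promoters listed and in 14.0% of the 86 promoters of members. The direct repeat of the core with 1 base between (AGGTCANAGGTCA, the peroxisome proliferator response element, searched on both strands and overlapping the single core) was in 0 of the 86 member windows and 0.0335% of all. These letters are a match and not a binding site. No promoter was listed for Slc47a1, the only member called in limma. The windows of Slc22a19 and Slc22a6, which are not printed, held no AGGTCA on either strand.

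Of 26 other carriers of drugs, bile acids, nucleosides and organic ions, 24 were measured and 21 tested, and limma and the fold rule called 0 of them, with 4 at an unadjusted p under 0.05. The nucleoside carrier Slc28a3, with a mean of 0.89 (SD 0.28), had a limma adjusted p of 0.0937. Of 24 regulators and partners, 22 were tested and 0 were called, with 2 at an unadjusted p under 0.05. Outside the symbol rule, the peptide transporter Tap1 of antigen presentation gave 268 and 148 in the female pair and 285 and 147 in the male pair, was 1.77-fold higher and passed the fold rule, with a limma adjusted p of 0.058. Cftr was at 0.45 (SD 0.14).

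Markers of other cell types are given beside these values because ureters can carry adhering tissue. All 10 kidney proximal tubule markers were tested, with none at 0, and their summed signal was 1919 in the Pparg-cKO and 2053 in the control pool in the female pair and 2128 and 2151 in the male pair. Without Aqp1, which carried most of it, the sum was 342 and 457 in the female pair and 298 and 512 in the male pair. The median was -0.12 on both arrays, 6 markers were lower and 1 was higher on both, and their means ran from -1.14 for Fbp1 to 0.13 for Pdzk1. Fbp1 alone was called lower in limma, with an adjusted p of 0.034. Of 8 liver markers, the summed signal was 3578 and 4616 in the female pair and 4002 and 7589 in the male pair, with medians of -0.05 and -0.92. Without Trf, the brightest, the sum was 2226 and 2300 in the female pair and 2539 and 4937 in the male pair. Trf was the 1 liver marker lower by the fold rule (-0.82, limma adjusted p = 0.0608). The part of proximal tubule and liver RNA in the lower values of Slc47a1, Slc22a2, Slc22a6 and Slc22a19 was not tested. Of 15 urothelial markers, 4 were lower and 1 higher by the fold rule, and 2 were called lower by limma, with a summed signal of 94481 and 135939 in the female pair and 118659 and 118114 in the male pair. Limma called 0 markers of smooth muscle and mesenchyme, red blood cells, macrophages, endothelium, adipose tissue or adrenal cortex, where 3 in all had an unadjusted p under 0.05, and 1 collecting duct marker, Fxyd4, was higher.

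**Figure D4:**
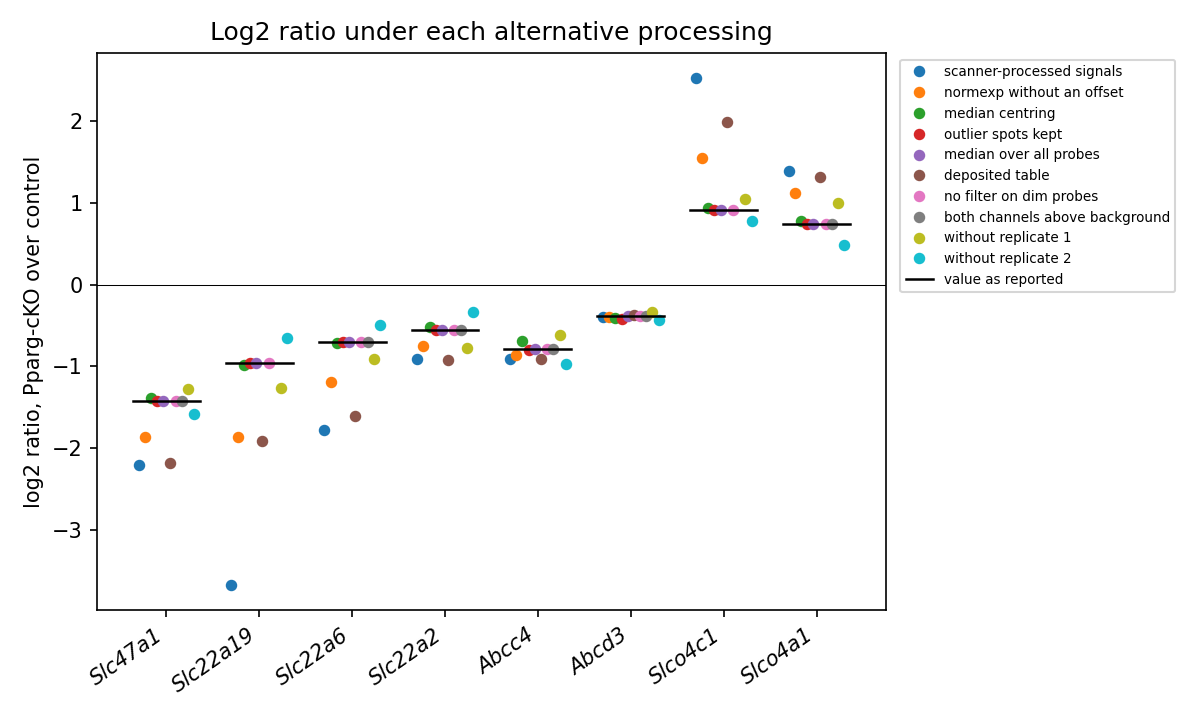
Log2 ratio of Pparg-cKO over control (y axis) of 8 members under up to 10 alternative settings (coloured points) and as reported (black line); Slc22a19 and Slco4c1 have no point where both channels had to be above background. Every point of each gene lies on 1 side of zero, while the sizes of the dim members Slc22a19, Slc22a6 and Slco4c1 vary most, and those of Slc22a19 are against Pparg-cKO signals that were not well above background.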

How the data were processed

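Ureter RNA was amplified in 1 round with T7 polymerase and labelled with AlexaFluor555 (green) and AlexaFluor647 (red). Per the file headers, the scanner files of Agilent Feature Extraction 10.7.3.1 held spot intensity: mean signal, median background and a processed signal corrected for background and dye. They also held a log10 ratio of red over green, per the file headers, which was not used here. The authors' deposited table held a score, a signed fold change per probe with rises and falls as positive and negative numbers, and served as an alternative and for the direction. Its Pearson correlation with log2 red over green across probes was 0.905 for array 1 (female) and -0.932 for array 2 (male), against the dye labels, so the direction is likely and not settled. It rests on the titles of that table and on superficial cell genes and the Pparg transcript, which stained less and more, respectively, in mutant tissue sections of the study.

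Mean signals were corrected with normexp (offset 50) and each array was loess-normalised with limma 3.58.1 (R 4.3.3). Spots flagged as outliers (2.87% and 3.24%) were left out and 0 were saturated. Spots of a probe were averaged, and the brightest probe stood for its gene. Genes above background on both arrays, in 1 channel or more, were fitted with lmFit and eBayes (1 residual degree of freedom per gene, prior of 4), two-sided, with Benjamini-Hochberg adjustment. The number of arrays limits the precision. The lists, members and the naming rule (members past a rule, 10 largest rises and falls, members at least 1.2-fold in opposite directions, next to the 1.5-fold line, dim in 1 pool, or with probes changed at least 1.2-fold in both directions, of which there were 0) were chosen with earlier results of these data known. Of 93 members, 89 matched a RefSeq transcript of GRCm38.p6, 1 under another symbol. Values of 2 members are not reported here.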

Additional observations from a re-analysis of the deposited data

Results flagged for a closer look

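Abcc3, an exporter of bile acids and glucuronides, was lower with Pparg-cKO among females and higher among males. It gave 997 in the Pparg-cKO and 1421 in the control pool in the female pair and 1747 and 1391 in the male pair, so that the male minus female log2 ratio was 1.09. Abca3, a lipid carrier, gave 1058 and 1313 in the female pair and 1564 and 1252 in the male pair, a difference of 0.79. Both differences were noticed because the arrays ran in opposite directions by at least 1.2-fold, and they were not tested, since each sex has 1 array and sex, dye and array change together. This held for 2 of 35 members with a signal of at least 100 (5.71%) and for 1.73% of all such genes.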

How the results depend on the processing

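The fold rule counted 0 members lower, and 0 in all, with each array centred on its median, with a signal of 200 and with a fold of at least 2. It counted 2 lower, and 2 in all, with a signal of 50, Slc47a1 being the addition. With 1 array at a time it counted 0 to 5 members higher and 1 to 6 in all; without replicate 1 these were 5 higher and 6 in all. In limma, scanner-processed signals gave 1 member higher (Slco4c1) and 2 in all, where 0.316% of all genes tested were higher and 0.293% lower. Normexp without an offset gave 2 higher (Slco4a1 and Slco4c1), 5 lower (Abcc4, Slc22a19, Slc22a2, Slc22a6 and Slc47a1) and 7 in all, against 1.26% and 1.28% of all genes tested. Of these, Slc22a19 on both arrays and Slco4c1 on the male array were above background in 1 pool only, and neither was among the 59 members with both channels above background throughout. The deposited table, and all probes with no filter on dim ones, gave 0 lower and 0 in all. The median log2 ratio of the members was 0.0595 with median centring. Abca3 turned to -0.00653 in the deposited table and Abcc3 to 0.0298 with median centring. Of 177 limma results for a named member under another setting with both arrays, 166 kept their direction and side of the threshold and 2 turned. With 1 array left out there is no test, and 30 of 70 tested members, Abca3, Abcc10 and Abcc3 among them, turned sign with 1 array or the other, as did Abcc2, which was not tested. The causes were not tested. Ratios of members near background were larger without the offset, and Slco4c1 had adjusted p-values from 0.000154 to 0.533.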
